A study of Mus musculus with 8 samples.

Results

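Etv1 (also called ER81), Etv4 (PEA3) and Etv5 (ERM) form the PEA3 subfamily of ETS transcription factors. All probes that the platform annotation names for these 3 genes were taken, which gave 3 of the 16593 named genes and 4 of the 25697 probes of the array, with 2 for Etv1 and 1 each for Etv4 and Etv5. Total RNA of mouse dorsal root ganglia, the sensory ganglia beside the spinal cord, taken at E12.5 of gestation was measured on Illumina bead arrays. There were 4 samples labelled wild-type and 4 labelled Erk1/2CKO(Wnt1), below the mutant. The name stands for a conditional knockout of Erk1/2, the last kinases of the ERK cascade, with Wnt1, whose Cre lines act in the neural crest, the source of the neurons and glia of these ganglia. The labels do not list its alleles, and whether either kinase is also missing from cells outside the neural crest is not given in the sources used here. The labels call the other group both wild-type and control and do not say whether it carries any of the engineered alleles. They give 3 litters for the study, without saying which sample came from which litter or how many embryos went into a sample. The p-values below therefore measure the spread between these samples. All arrays lay on 1 slide with the genotypes in separate positions, so position and genotype cannot be told apart. The deleted genes themselves were not analysed here.

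PEA3 factors share an ETS domain, which binds DNA around the letters GGAA, and their genes are among the best known transcriptional outputs of growth factor receptors that signal through ERK. In the resting state the repressor Capicua (Cic) keeps these genes down, and ERK relieves that repression; the proteins are also phosphorylated by ERK and are removed through the ubiquitin ligase Cop1. In sensory ganglia Etv1 is known for proprioceptive neurons, where it is induced by neurotrophin-3 and needed for their endings on motor neurons. Etv4 is known for motor neuron pools, where GDNF induces it. Etv5 has also been described in the satellite glia of rat ganglia.

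Most markers of sensory ganglia on the array were measured above the filter level. They were 16 of 19 pan-neuronal and sensory neuron genes, 12 of 16 glial genes and 11 of 14 proprioceptive and mechanoreceptive neuron genes. Runx3, of the last list, was under it, at percentile 15.2. The sensory neuron factors Isl1 and Pou4f1 stood at percentiles 99.9 and 97.8 of all probes by mean brightness, and the neurotrophin receptor gene Ngfr at percentile 96.6, while the glial gene Fabp7 stood at 80.5 and the neuronal tubulin gene Tubb3 at 59.9. The motor neuron genes Mnx1, Chat and Slc18a3 and the progenitor gene Olig2 stood at percentiles 35.7, 41.0, 18.0 and 23.0, under the filter level of the gene test, a log2 intensity of 6.71 that is the median of all probes. Of the same list Lhx3 stood at percentile 56.6 and Isl2, which sensory neurons also express, at 91.3, and 5 of its 16 genes passed the filter. The files used here give no detection p-values. Wild-type replicates 3 and 4 stood apart from replicates 1 and 2, with correlations across the features tested of 0.9749 to 0.9815 between these pairs against 0.9943 and 0.9925 within them, and the differences of Etv1, Etv4 and Etv5 are also given without either pair.

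Etv4 had the largest measured fall of the 3 factors. Its raw bead intensity was 412, 370.2, 239.5 and 323 on wild-type replicates 1 to 4, and 124, 118, 109 and 122 on mutant replicates 1 to 4. The lowest wild-type array was well above the highest mutant array, and the mutant arrays lay close together, at 118 ± 6.4 (SD, n = 4) against 336 ± 74.0 in the wild-type. After background correction and quantile normalization the log2 intensity was 8.35, 8.20, 7.73 and 8.04 in the wild-type, and 6.46, 6.31, 6.24 and 6.33 in the mutant. The gap between the groups, 1.27, was larger than the whole range of the wild-type arrays, 0.62. The log2 difference was -1.75 ± 0.13 (SE, n = 4 per group; 95% interval -2.03 to -1.46; limma adjusted p = 0.000142), which puts the mutant at 29.8% of the wild-type level on this scale. Since ganglia were measured in bulk, fewer expressing cells and less RNA per cell cannot be told apart.

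All 4 mutant arrays lay under the filter level for Etv4, and at percentiles 26.1 to 39.6 of all probes on their own array, where the wild-type arrays lay at 67.4 to 74.2. Without detection p-values it was not tested whether any Etv4 signal above background remained in the mutant. The size of the fall depends on how the background is treated. After quantile normalization it was 2.55-fold without background correction, 3.35-fold with normexp and an offset of 50, and 5.07-fold with an offset of 16. The offset of 16 was added after the data were seen. The call held in each setting (limma adjusted p = 0.000359, 0.000142 and 8.41e-05). Etv4 differed by -1.943 once wild-type replicates 3 and 4 were left out (adjusted p = 6.76e-05). Leaving out replicates 1 and 2 gave -1.548 (adjusted p = 0.000466).

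**Figure D1:**
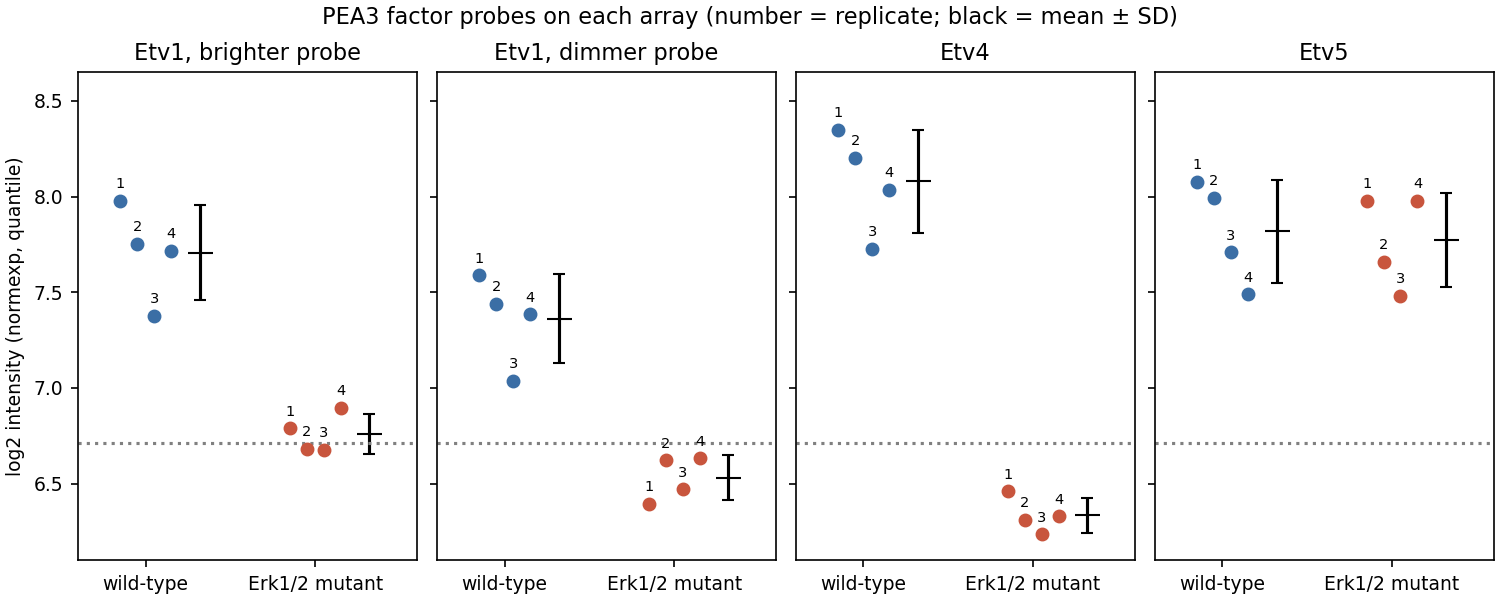
Log2 intensity after normexp and quantile normalization of the 4 probes of the PEA3 factors on each of the 8 arrays; points are arrays numbered by replicate, black marks are the mean ± SD of 4 arrays, and the dotted line is the filter level of 6.71. Wild-type and mutant arrays do not overlap for Etv4 and for both probes of Etv1, and overlap for Etv5.

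Etv1 fell by a smaller measured amount, at both of its probes. The raw intensity of the brighter probe was 326, 282, 198 and 270.3 on wild-type replicates 1 to 4 and 144, 139.6, 135 and 161 on mutant replicates 1 to 4. Again no mutant array reached the lowest wild-type array, replicate 3. Its log2 intensity was 7.98, 7.75, 7.38 and 7.72 in the wild-type and 6.79, 6.68, 6.68 and 6.90 in the mutant, a difference of -0.94 ± 0.12 (SE, n = 4 per group; 95% interval -1.22 to -0.67; limma adjusted p = 0.00498). The mutant thus stood at 52.0% of the wild-type level on this scale, with 2 of its 4 arrays under the filter level. With wild-type replicates 3 and 4 left out Etv1 differed by -1.104 (adjusted p = 0.0025). With replicates 1 and 2 left out the value was -0.7853 (adjusted p = 0.00445).

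The dimmer probe of Etv1 gave raw intensities of 258, 235, 168 and 223 in the wild-type and 120.2, 136, 122 and 141 in the mutant. In log2 units these were 7.59, 7.44, 7.04 and 7.39 against 6.40, 6.62, 6.47 and 6.63. As for the brighter probe, wild-type replicate 1 was highest and replicate 3 lowest, and the groups did not overlap. All 4 mutant arrays lay under the filter level at the dimmer probe, where background limits the size of a fall. In the fit over all 25697 probes, in which 0.556% of probes were called lower and 3.68% had all mutant arrays under all wild-type arrays, the dimmer probe differed by -0.83 ± 0.11 (SE, limma adjusted p = 0.00369) and the brighter by -0.94 ± 0.12 (adjusted p = 0.00212). The fall at the brighter probe was larger by 0.11 on the log2 scale, a difference that did not pass an exact permutation test over the 8 arrays (two-sided p = 0.2). Both probes are annotated to the same transcript accession, and where on the transcript they lie was not analysed here.

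Etv5 gave no call in either direction. Its raw intensity was 347, 328, 238 and 237 on wild-type replicates 1 to 4 and 269, 235, 203 and 296 on mutant replicates 1 to 4. The groups overlapped over most of their range, with the lowest value in the mutant and the highest in the wild-type. The log2 intensity was 8.08, 7.995, 7.71 and 7.49 in the wild-type, and 7.98, 7.66, 7.48 and 7.98 in the mutant. The difference of -0.04 ± 0.16 (SE; n = 4 and 4) did not pass the test (limma adjusted p = 0.910). Its 95% interval ran from -0.39 to 0.30, so that the mutant level lay between 76.3% and 123% of the wild-type level on this scale, an interval that holds neither the fall of Etv4 nor that of Etv1. The sign of this small difference turned on leaving out any one of wild-type replicate 1, wild-type replicate 2 and mutant replicate 3. Etv5 stood at -0.26 with wild-type replicates 3 and 4 left out (adjusted p = 0.400). It stood at 0.17 with replicates 1 and 2 left out (adjusted p = 0.502).

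The upstream sequences of a factor that fell and of the one that did not are shown for the letters that ETS factors and Capicua are known to bind. Of the 3 genes, Etv1 and Etv5 have windows in the RefSeq promoter table (GRCm38.p6), 2 starts each. The 250 bases before a start were searched on both strands for the ETS core GGAA, for the 8-letter Capicua sequences TGAATGAA and TGAATGGA and the 6 letters TGAATG that they share, for the AP-1 site TGANTCA and for the cyclic AMP response element TGACGTCA. Capitals mark GGAA and TGAATG, or their reverse complements TTCC and CATTCA.
Etv1, start 1, chr12:38779832-38780081, plus strand: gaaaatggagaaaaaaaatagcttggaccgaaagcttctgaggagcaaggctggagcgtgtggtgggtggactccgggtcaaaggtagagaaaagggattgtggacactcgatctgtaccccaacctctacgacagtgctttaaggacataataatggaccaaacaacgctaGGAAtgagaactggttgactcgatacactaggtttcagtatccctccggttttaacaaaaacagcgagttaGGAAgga
Etv5, start 1, chr16:22439571-22439820, minus strand: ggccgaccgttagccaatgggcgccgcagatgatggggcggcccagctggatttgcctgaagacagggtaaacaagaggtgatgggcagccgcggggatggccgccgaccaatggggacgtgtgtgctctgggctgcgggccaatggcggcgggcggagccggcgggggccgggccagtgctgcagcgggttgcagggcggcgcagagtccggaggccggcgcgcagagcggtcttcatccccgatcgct
Etv5, start 2, chr16:22438369-22438618, minus strand: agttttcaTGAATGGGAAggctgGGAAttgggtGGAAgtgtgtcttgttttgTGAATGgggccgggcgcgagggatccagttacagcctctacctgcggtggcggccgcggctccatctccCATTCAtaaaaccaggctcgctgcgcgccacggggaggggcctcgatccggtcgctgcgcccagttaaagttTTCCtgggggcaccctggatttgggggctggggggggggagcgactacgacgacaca
Start 1 of Etv1 holds GGAA at 2 places and start 2 of Etv1, not shown, at 1, where 93.4% of all 32851 windows of this length hold it at least once. Start 1 of Etv5 is rich in G and C (71.2%) and holds none of the 6 searched sequences. Start 2 of Etv5 holds GGAA at 4 places and TGAATG at 3, and 33.4% of all windows hold GGAA 4 times or more. The 3 TGAATG begin 242, 198 and 129 bases before the start; the first lies directly before a GGAA. Of all windows 10.9% hold TGAATG at least once and 0.131% (43 windows) hold it 3 times or more, and neither window of Etv1 holds it. The core TGAATG was searched for after these sequences had been seen. Neither 8-letter Capicua sequence, present in 1.08% and 1.01% of all windows, lies in these 4 windows, and neither does the AP-1 site (6.75%) or the cyclic AMP element (1.55%). A match is a description of the letters and not a site of binding, and which start is used in these ganglia was not analysed here.

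In all, 2 of the 3 PEA3 genes fell, Etv1 and Etv4, in a fit in which 2.51% of the 8935 genes tested were called in either direction, 1.11% were called lower and 5.65% had all mutant arrays under all wild-type arrays. All 3 genes passed the filter, Etv4 through its wild-type arrays.

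Whether the genotype acted unequally on the 3 genes was tested on the differences between them within each array. Etv4 minus Etv5 was 0.27, 0.21, 0.0175 and 0.55 on the wild-type arrays and -1.52, -1.35, -1.25 and -1.65 on the mutant arrays, a shift of -1.70 ± 0.14 (SE, n = 4 per group). Etv1 minus Etv5 moved from -0.11 ± 0.25 (SD) to -1.01 ± 0.16, a shift of -0.90 ± 0.15 (SE). Etv4 minus Etv1 moved from 0.37 ± 0.06 (SD) to -0.43 ± 0.10, a shift of -0.80 ± 0.06 (SE). The groups did not overlap for any of the 3 pairs. Each pair gave p = 0.0286 in the two-sided exact permutation test over 70 arrangements of the arrays, the smallest p this design allows, and 0.0286 after Benjamini-Hochberg adjustment over the 3 pairs. The measured differences of the 3 genes were thus unequal. The mutant arrays of Etv4, and some of those of Etv1, lie under the filter level, where background limits the size of a fall, so the comparison of Etv4 with Etv1 holds for the measured values only. The difference of Etv4 and Etv1 varied least of the 3 pairs, with an SD of 0.06 between the wild-type arrays. There each gene alone had an SD of 0.27 and 0.25. Between the mutant arrays the SD of the difference was 0.104, about that of Etv4 (0.093) and Etv1 (0.105) alone. Leaving out 1 array gave shifts of -1.782 to -1.606, -0.8332 to -0.7541 and -0.9744 to -0.7874 for Etv4 minus Etv5, Etv4 minus Etv1 and Etv1 minus Etv5, each at an exact p of 0.0286, again the smallest possible. Leaving out a wild-type pair left shifts of -1.68 and -1.722, -0.8388 and -0.7626, and -0.8416 and -0.9595 in the same order, in designs whose smallest exact p is 0.0667.

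**Figure D2:**
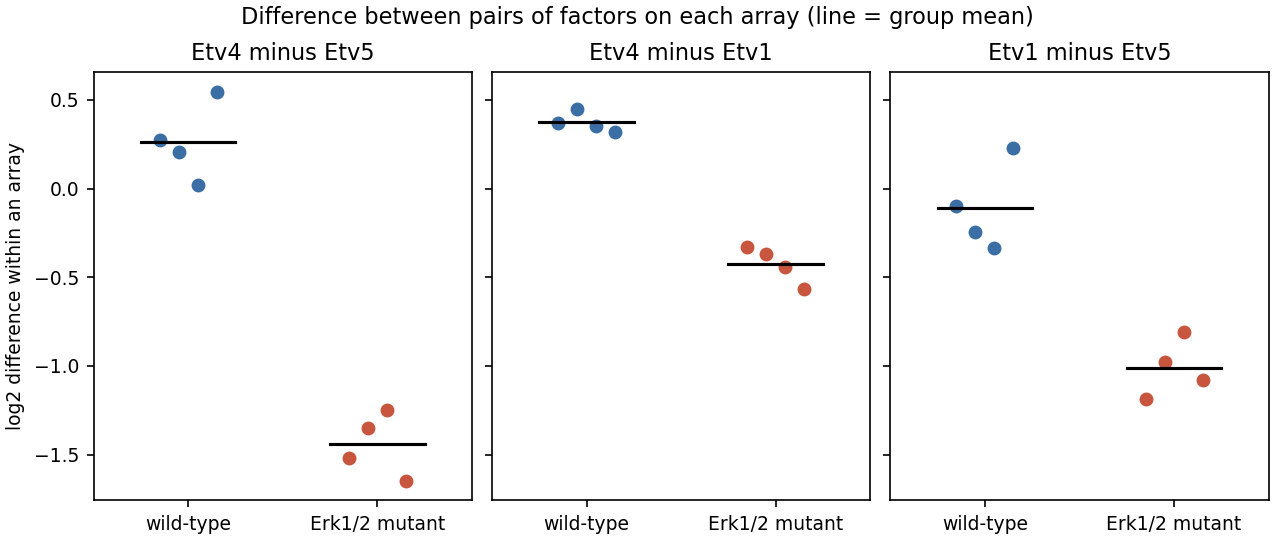
Log2 difference between pairs of PEA3 factors within each of the 8 arrays (points; left to right within a group are replicates 1 to 4), with the group mean as a line. For each pair the 4 mutant arrays lie under the 4 wild-type arrays, with mean shifts of -1.70, -0.80 and -0.90.

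**Figure D3:**
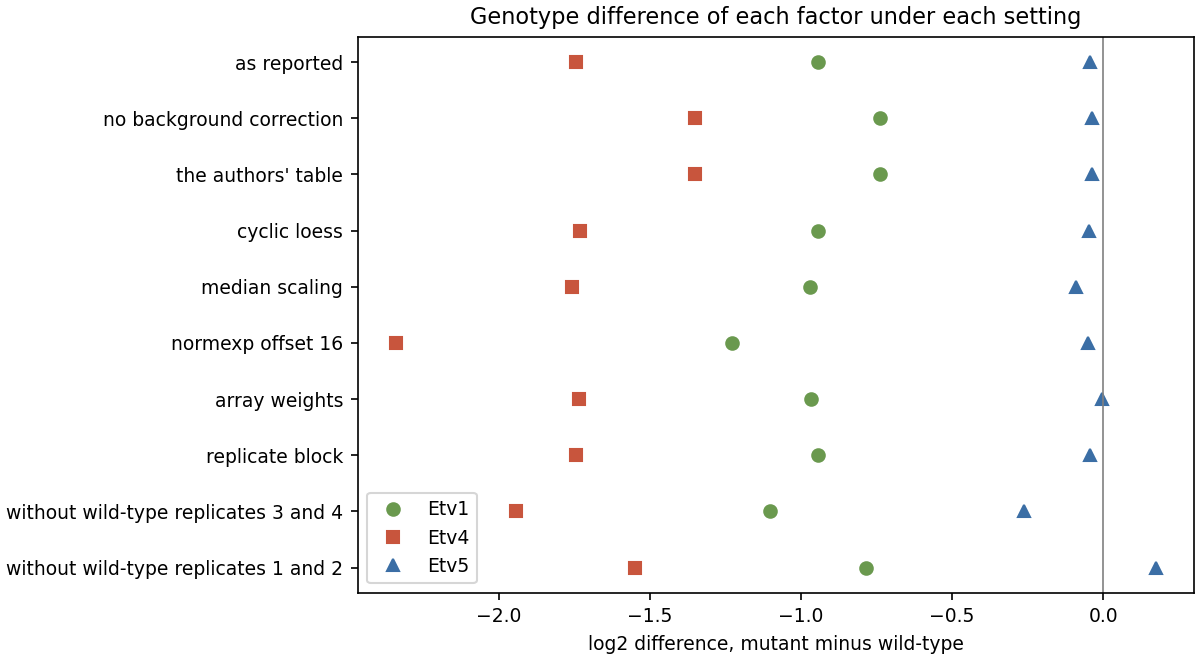
Log2 difference, mutant minus wild-type, of Etv1, Etv4 and Etv5 as reported and under 9 other settings of processing or choice of arrays. Of these settings 2, no background correction and the authors' table, are the same values. Etv4 stays between -2.34 and -1.35 and Etv1 between -1.23 and -0.74, and Etv5 lies between -0.26 and 0.17.

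Within the wild-type group all 3 factors were lower on one pair of arrays. Replicates 3 and 4 averaged 0.40 lower than replicates 1 and 2 for Etv4, 0.32 lower for the brighter and 0.30 lower for the dimmer probe of Etv1, and 0.44 lower for Etv5 on the log2 scale. For Etv5 this step between wild-type arrays was larger than the genotype difference; for Etv1 and Etv4 it was smaller. Marker lists moved with it. For 16 tested pan-neuronal and sensory neuron genes the mean level, centred over the 8 arrays, was -0.35 on wild-type replicate 3 and -0.16 on replicate 4. Replicate 1 stood at 0.13 and replicate 2 at 0.012, and the mutant ranged from 0.0039 to 0.23. For 18 cell cycle genes replicate 3 stood at 0.70 and replicate 4 at 0.57, while every other array was between -0.33 and -0.10. For 8 erythroid genes the same replicates stood at 0.73 and 0.36, all others between -0.34 and -0.06. The part of these lists in the step was not tested.

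**Figure D4:**
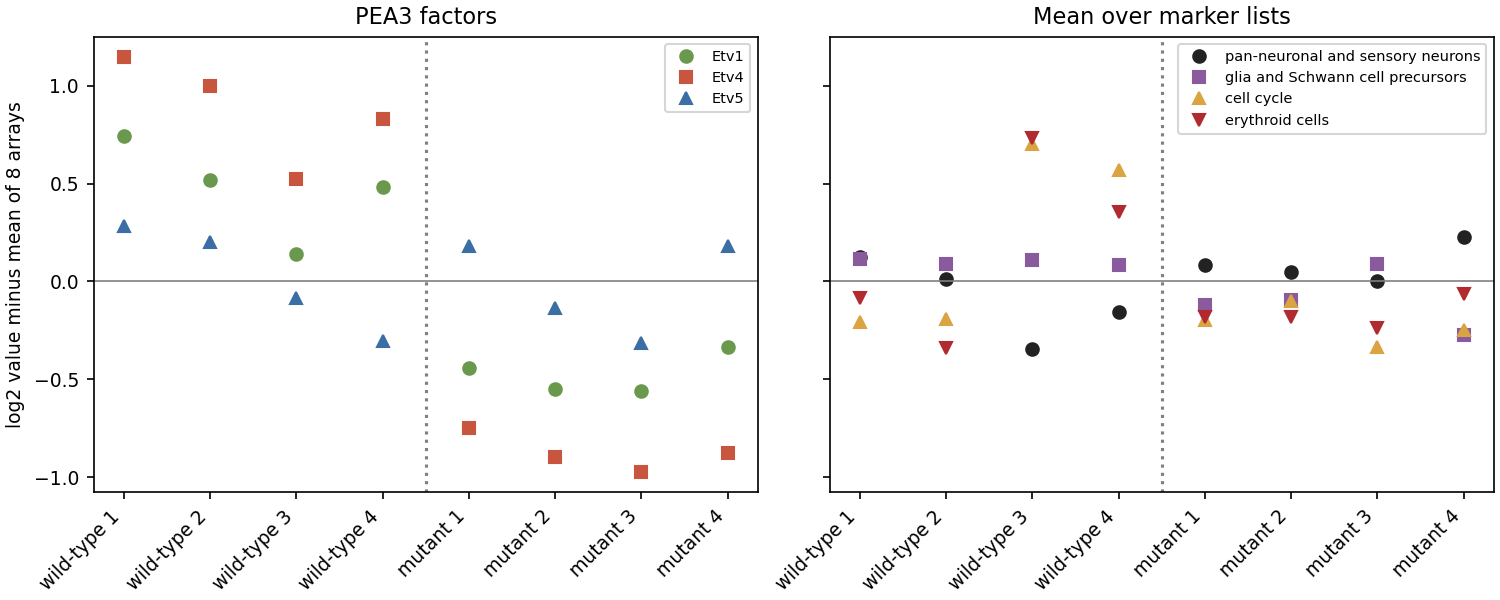
Log2 values minus the mean over 8 arrays, by array, for the 3 PEA3 factors (left) and for the mean over the tested members of 4 marker lists (right). Etv1 and Etv4 are lower on all 4 mutant arrays than on any wild-type array, and the neuronal list is lowest on wild-type replicates 3 and 4.

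No neuronal marker other than Etv1 was called lower in the mutant. Of the 16 neuronal genes tested, 0 were called lower and 1 higher, where 1.11% of all genes were called lower and 1.4% higher, with a median difference of 0.08 against 0.0018 over all genes. Among 11 markers of proprioceptive and mechanoreceptive neurons, Etv1 itself was the 1 called, and the median was -0.02. Ntrk3, the receptor for neurotrophin-3 that marks proprioceptive neurons, differed by -0.15 ± 0.30 (SE; n = 4 and 4; limma adjusted p = 0.831) and varied widely, from 9.02 to 9.81 in the wild-type and from 8.59 to 10.1 in the mutant. Runx3, a factor of the same neurons, stood at percentile 15.2 of all probes and under the filter. Of 12 tested glial markers 2 were called lower and 1 higher, against the same shares of all genes. Egr2, described below, is one of the 2. The differences of the 12 ran from -1.498 for Egr2 to 1.27 for Mbp, 6 negative and 6 positive, with a median of -0.11. The mean level of the 12 genes, Egr2 included, ranged from 0.09 to 0.12 in the wild-type. In the mutant it ranged from -0.27 to 0.09, with mutant replicate 3 the highest. Of 5 tested motor neuron and spinal cord genes 0 were called. Macrophage genes stood higher on mutant replicates 1 to 3 (0.25, 0.61 and 1.03) than on mutant replicate 4 (-0.52) and the wild-type arrays (-0.38 to -0.26), with 0 of 8 called. At an unadjusted limma p under 0.05 stood 1614 of all 8935 genes. The part of glial and macrophage RNA in the falls of Etv1 and Etv4 was not tested.

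No other ETS gene passed the same test. Of 23 further ETS genes listed, 21 have a probe and 10 were tested; 0 were called in either direction by limma, against 1.11% lower and 1.40% higher over all genes. Their differences ran from -0.19 for Gabpa to 0.17 for Ets2, with a median of -0.05. Ets2, itself a known substrate of ERK, was the brightest of them, at 10.2 to 10.8 in the wild-type and 10.6 to 10.8 in the mutant, 0.17 ± 0.12 apart (SE; limma adjusted p = 0.491). Ets1 stood at -0.13 ± 0.17 (adjusted p = 0.7503). Erf, an ETS repressor that ERK controls by export from the nucleus, stood at 0.14.

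The list of repressors of PEA3 factors and of genes of their turnover gave no call. By limma 0 of 9 tested passed, with a median difference of 0.01. The shares over all genes were 1.11% lower and 1.4% higher. The differences ran from -0.25 for Cul4b to 0.34 for Cic. Cul4b, named after its values were seen, had all mutant arrays under the wild-type arrays, as had 5.65% of all genes. It was not called (limma adjusted p = 0.194). The 2 brightest were Trib2, a pseudokinase of the Tribbles family that works with Cop1, at 0.01 ± 0.12 (SE), and the acetyltransferase gene Ep300 at 0.11 ± 0.09. Cic, named after its values were seen, had 8.21, 8.09, 7.92 and 7.90 in the wild-type and 8.59, 8.21, 8.33 and 8.34 in the mutant. Its mutant arrays all lay above the wild-type arrays, as did those of 6.3% of all genes, and it was not called (0.34 ± 0.11, limma adjusted p = 0.132). In 1 of 20 alternatives Cic was called higher, with wild-type replicates 1 and 2 left out (0.46, limma adjusted p = 0.0339). In that setting 1218 genes were called, 608 of them lower, against 224 and 99 in the reported fit.

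The list of receptors, ligands and related genes tied to induction of PEA3 factors gave 0 calls among 11 tested, with a median of 0.08. Among all genes 1.11% were called lower and 1.4% higher. The 2 brightest were Fgf13, an FGF family member that stays inside the cell, at 0.23 ± 0.20 (SE; n = 4 and 4; limma adjusted p = 0.586) and Ngfr at -0.40 ± 0.15 (adjusted p = 0.209). The differences ran from -0.71 for Ret to 0.57 for Gfra3, 5 of them negative and 6 positive. All mutant arrays lay under the wild-type arrays for Gdnf (-0.57) and above them for Fgf10 (0.36) and Frs3 (0.27). Among all genes 5.65% lay under and 6.3% above in this way. These genes, and Ret, the receptor through which GDNF acts, were named after their values were seen. The log2 intensity of Ret was 8.08, 8.38, 7.21 and 7.43 in the wild-type and 6.89, 7.25, 6.96 and 7.17 in the mutant. The groups overlapped through wild-type replicate 3, and the difference of -0.71 ± 0.23 did not pass (limma adjusted p = 0.148). In 1 of 20 alternatives Ret was called, at -1.16 without wild-type replicates 3 and 4 (adjusted p = 0.00468).

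Other outputs of the ERK pathway also held genes with and without a call. Of 13 tested outputs other than the PEA3 genes 4 were called lower and 0 higher, with a median of -0.19, against 1.11% lower and 1.4% higher over all genes. Egr2, a zinc finger factor of the Schwann cell lineage, stood -1.498 ± 0.10 from the wild-type on the log2 scale (SE; limma adjusted p = 8.3e-05). Its mutant arrays, like those of Etv4, all lay under the filter level, at 6.39 to 6.49. Dusp6, the ERK phosphatase, at -0.91 was close to Etv1 in the setting reported. Over the other processing settings Dusp6 ran from -1.02 to -0.86 and Etv1 from -1.23 to -0.74. Dusp4 (-0.71) and Spred1 (-0.62), an inhibitor of Ras signalling, fell as well. Spry4, a feedback inhibitor, was with Etv5 among those with no call, at -0.19 ± 0.16 (adjusted p = 0.584). Dusp4 lost its call when any of wild-type replicates 1, 2 and 4 or of mutant replicates 1, 2 and 3 was left out (limma adjusted p = 0.0547 to 0.0925), and as the mean of its probes.

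**Figure D5:**
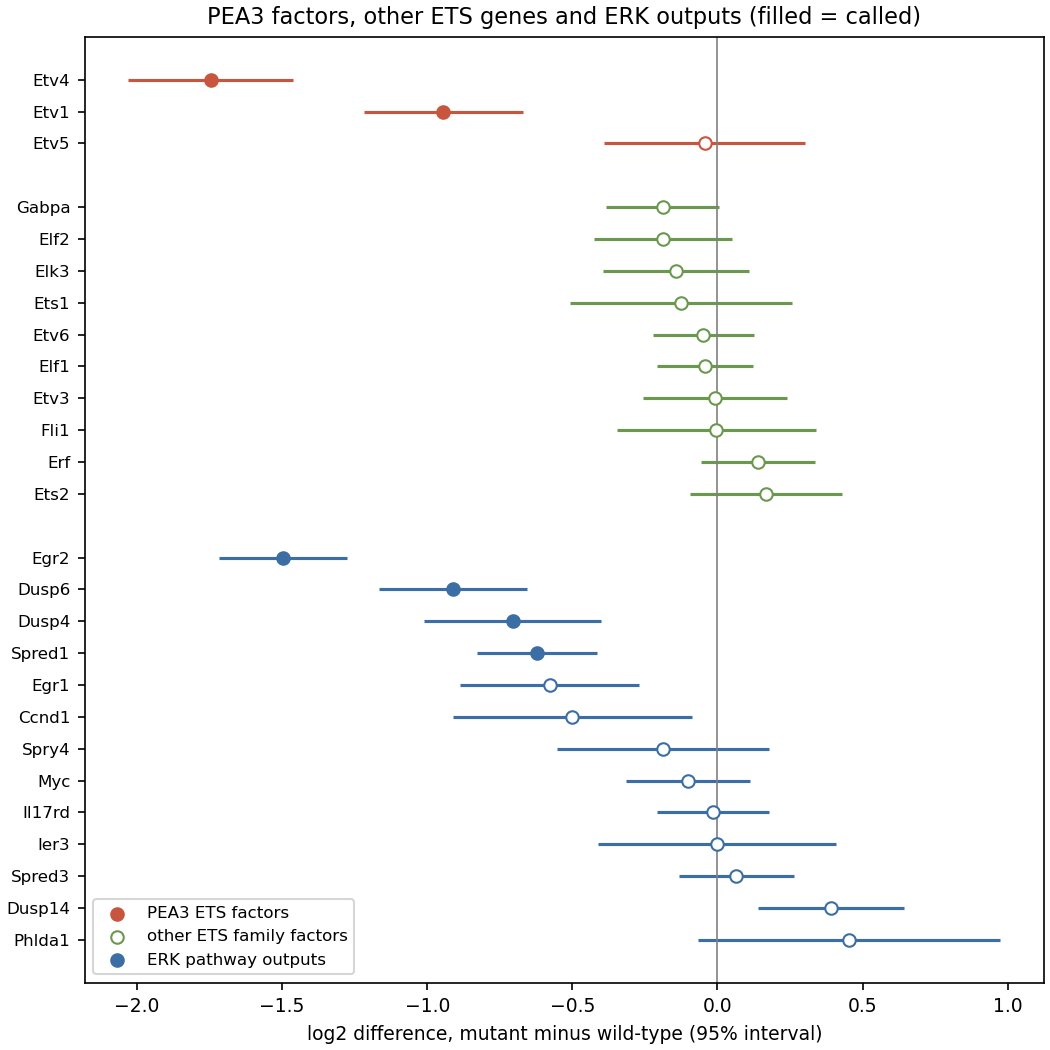
Log2 difference, mutant minus wild-type, with its 95% interval for the 3 PEA3 factors, 10 other ETS genes and 13 other ERK outputs; filled points were called at an adjusted p under 0.05. In the ETS family only Etv1 and Etv4 are filled, and Egr2, Dusp6, Dusp4 and Spred1 are the filled outputs.

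Genes linked to PEA3 factors in sensory and motor neurons gave 0 calls among 12 tested, with a median of -0.02. Of all genes, 1.11% were called lower and 1.4% higher, so a list of this size can hold no call by its size alone. The 2 brightest were Vim, an intermediate filament gene, at 0.07 ± 0.10 (SE, n = 4 per group) and Mmp14, a membrane-bound metalloprotease gene, at -0.0038 ± 0.12. The differences ran from -0.69 for Pvalb, a calcium-binding protein of proprioceptive neurons, to 0.64 for Rasgrf1, a Ras exchange factor, neither of them called by limma.

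The genes whose values were most like those of each factor over the 8 arrays were found by the root mean square difference of centred log2 values. For Etv1 they were Fgfr1op2 (0.13), Atp6v1d (0.14), a subunit of the vacuolar proton pump, and Spry3 (0.15), a member of the Sprouty family, against a median of 0.52 over all genes. Spry3 had 9.22, 9.20, 9.0025 and 9.10 in the wild-type and 8.34, 8.35, 8.34 and 8.53 in the mutant, and like Etv1 was highest on replicate 1 and lowest on replicate 3 within the wild-type. For Etv4 they were the claudin gene Cldn34c1 (0.24), the potassium channel subunit gene Kcnab1 (0.24) and the peptide gene Uts2b (0.28), against a median of 0.90. The match was made over all 8 arrays, so the choice favours genes that share the order within the wild-type. Distances under the median were fixed by the choice as well. The profiles they were matched to include the genotype difference, so that a gene like Etv1 or Etv4 had to be lower. These 6 genes differed by -0.74 to -1.88 on the log2 scale and were called, though Uts2b was not when mutant replicate 1 or replicate 2 was left out (limma adjusted p = 0.0555 and 0.0504). For Etv5 they were Afg1l (0.036), D6Wsu163e (0.081) and Sobp (0.087), against a median of 0.27. For the same reason these had to differ little. The distance between Etv1 and Etv4 was 0.41, that between Etv1 and Etv5 0.49 and that between Etv4 and Etv5 0.87.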

How the data were processed

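The authors deposited raw bead intensity values on a linear scale for 25697 probes; the files used here hold no detection p-values. Per the submitters' processing notes BeadStudio was a tool used, without a version. No value lies under 80.3, and whether background was subtracted is not given in the sources used here. The authors' second table holds log2 values, which log2 and quantile normalization of the deposited intensities give back to within 5.0e-09. Intensities were background corrected with normexp (offset 50), put on the log2 scale and quantile normalized by limma 3.58.1 (R 4.3.3). An offset of this kind pulls differences of dim probes towards 0. Median raw intensity was 144 to 159 on wild-type and 138 to 147 on mutant arrays. Probes with a mean over 8 arrays above the median (6.71) were kept, and the brightest probe stood for a gene, which left 9664 features, 8935 of them named genes. Of all probes 23978 have 1 symbol, 0 several and 1719 none in the table used; 23962 symbols came by identifier from GRCm38.p6. Each feature was tested with limma (lmFit, eBayes, two-sided, no covariate), mutant minus wild-type, with Benjamini-Hochberg adjustment, and called at an adjusted p under 0.05. Every member probe was also tested in a fit over all probes without a filter. Precision is limited by having 8 arrays, with a median SE over genes of 0.104. The fit was tested on simulated data.

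The members, lists and tests were chosen with earlier results of these data known. Named genes are the members, up to 4 called genes of each list with the smallest adjusted p or its 2 brightest where none was called, the 3 genes most like each member, and Dusp6, Spry4 and Egr2. The alternatives were other background corrections and scalings, the authors' table, other filters, averaged probes, array weights, a prior with an intensity trend, a block for replicate numbers, and arrays left out. Egr1, Cic, Cul4b, Ret, Gdnf, Gfra3, Fgf10, Frs3, Ntrk3, Mbp, Erf, Gabpa, Pvalb and Rasgrf1 fall outside the rule and were named after their values were seen. Replicate numbers were checked as pairs, and same-numbered samples did not deviate together.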

Additional observations from a re-analysis of the deposited data

Results flagged for a closer look

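None of the 4 member probes had an array far from the other 3 of its group. Among the other named genes, 4 of 60 groups of 4 arrays examined, members included, had one by Dixon's criterion for 4 values at the 95% level, where chance gives about 1 in 20. They were Atp6v1d on mutant replicate 2 (log2 intensity 10.66, the others 10.92 to 10.94), Egr1 on the same array (9.5, the others 8.94 to 9.04), Spry3 on mutant replicate 4 (8.53, the others 8.34 to 8.36) and Vim on mutant replicate 4 (13.19, the others 13.48 to 13.50).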

How the results depend on the processing

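Etv1 and Etv4 kept their fall and their call under all 20 alternatives that gave a value. Etv1 ran from -1.23 to -0.74 (limma adjusted p = 0.00155 to 0.0267) and Etv4 from -2.34 to -1.35 (3.1e-05 to 0.00155). Both fail the filter at the upper quartile and have no value there. No background correction and the authors' table gave the same values and count, here and below, as 2 alternatives. Etv5 was never called (adjusted p = 0.400 to 0.995); its difference ran from -0.15 to 0.053 with 1 array left out, and turned to 0.17 without wild-type replicates 1 and 2. The pairs kept direction, with an exact p of 0.0286, the smallest possible with 8 or 7 arrays, except without a wild-type pair, where the adjusted p is 0.0667, the smallest possible with 6 arrays: -1.68, -0.8388 and -0.8416 without replicates 3 and 4, and -1.722, -0.7626 and -0.9595 without replicates 1 and 2, for Etv4 minus Etv5, Etv4 minus Etv1 and Etv1 minus Etv5.

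Called genes numbered 224, 99 of them lower. With array weights there were 341, with the replicate block 82 (45 lower), with 1 array left out 67 to 200 (38 to 95 lower; 128 and 89 on dropping wild-type replicate 3 and replicate 4, 67 and 79 on dropping mutant replicate 1 and replicate 2), without wild-type replicates 1 and 2 1218 (608 lower), with median scaling 181 lower and with the filter at the upper quartile 58 lower; the cause was not tested. Same-numbered samples did not deviate together (correlations -0.28 to -0.05). These correlations cannot show whether such samples shared a litter, which the labels do not give. Under the block Etv4 (-1.75, limma adjusted p = 0.00155) and Etv1 (-0.94, adjusted p = 0.0250) were called and Spred1 was not (0.0609).

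Of 26 other named genes, 537 values were computed under alternatives; 489 kept direction and side of the threshold, 10 lost a call, 5 gained one and 33 changed sign. The sign changes were of genes with small differences and no call. Median scaling, which moved the median of all features by -0.0623, gave Trib2 -0.09956, Vim -0.08548 and Sobp -0.01034. Mean probes gave Sobp -0.0233 and Ntrk3 0.004277. Mmp14 was 0.001139 with cyclic loess and 0.02978 with array weights. With wild-type replicates 3 and 4 left out Ets1 was 0.1811, Trib2 -0.1424, Fgf13 -0.1367, Vim -0.02723, Mmp14 0.08402, Sobp -0.1423 and Ntrk3 0.1622; with replicates 1 and 2 left out Afg1l was 0.1137 and D6Wsu163e 0.1523. With 1 array left out Ets1 ran from -0.2279 to 0.007361, Trib2 from -0.07715 to 0.0739, Mmp14 from -0.07249 to 0.09211, Afg1l from -0.1999 to 0.006796, D6Wsu163e from -0.1699 to 0.004854, Sobp from -0.06419 to 0.1114 and Ntrk3 from -0.4663 to 0.04354. Uts2b lost its call on dropping mutant replicate 1 (adjusted p = 0.0555) or 2 (0.0504). Egr1, at -0.58 (limma adjusted p = 0.0630), gained one with median scaling (0.035) or on dropping mutant replicate 2 (0.0289), and Fgf13 with wild-type replicates 1 and 2 left out (0.5936, adjusted p = 0.0353). The list counts moved in few settings. Without wild-type replicates 1 and 2 the receptors and ligands had 1 called lower and 2 higher, and the repressor and turnover genes 1 higher. In the same setting the ERK outputs had 2 higher and the linked genes 1 lower. Without replicates 3 and 4 the receptors and ligands had 1 lower and 1 higher, and with an offset of 16 they had 1 higher. With the filter at the upper quartile 2 ERK outputs were called lower. Signal close to background limits how far the size of the falls of Etv4 and Etv1 can be read.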
